A study of Mus musculus with 35 samples.

Results

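The genes of peptide presentation by MHC class II were followed through 6 mouse tissues. They are *H2-Aa*, *H2-Ab1*, *H2-Eb1*, *Cd74*, *H2-DMa*, *H2-DMb1* and *Ciita*, 7 of the 55356 genes counted, and they were taken by symbol through the deposited map that pairs ENSEMBL genes with Iso-seq loci. All 7 had a locus of their own, and all 7 passed the filter on low counts that left 29911 genes for testing. RNA came from adult C57BL/6J mice: brain, cerebellum, heart and colon of females and males, ovary of females and testis of males. Each of the 10 groups of tissue and sex had 3 rRNA-depleted, strand-specific RNA-seq libraries, except male heart with 2, which made 29. The mice are an unmodified inbred strain with no treatment named in the labels. Iso-seq, which reads full-length cDNA, was run on gonads and on pools of the somatic tissues, and entered only through the transcript models. The sources used here do not say which libraries came from one animal, so P-values measure the spread among these libraries, which may be partly technical.

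Antigen-presenting cells such as dendritic cells, B cells and macrophages carry peptides from endosomes to the surface on class II molecules, where CD4+ T cells read them. A class II molecule is an alpha and a beta chain, *H2-Aa* with *H2-Ab1* for I-A and *H2-Eb1* for the beta chain of I-E. The C57BL/6 strain makes no I-E alpha chain, and the symbol *H2-Ea* matched no locus name in the counted annotation, which has it as *H2-Ea-ps*. The invariant chain *Cd74* fills the groove during transport, the H2-DM heterodimer of *H2-DMa* and *H2-DMb1* exchanges its remnant for peptide, and the coactivator CIITA, encoded by *Ciita*, switches the other genes on at their promoters. In bulk tissue, fewer cells of a type and less RNA per cell cannot be told apart.

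Total counts ran from 11742417 to 36194255 per library (median 24403774), and the colon libraries had 11742417 to 18890658. Of 8 genes that mark a tissue or a sex, 8 were higher in every library with that label than in any other library. Levels are given as FPKM, which here is the count divided by the total of its library and by the kilobases of exon at the locus. Tests ran on counts with edgeR's TMM scaling, whose factors were 0.604 to 0.711 in 4 heart libraries, 1.12 in female heart 3 and 1.296 to 1.449 in ovary. Therefore, comparisons of heart with ovary depended on the scale. Female heart 3 stood apart from the other heart libraries, and the heart results that changed without it are given both ways. Without it the heart means were 56.4 FPKM for *H2-Aa*, 32.2 for *H2-Ab1*, 43.7 for *H2-Eb1*, 57.4 for *Cd74*, 4.33 for *H2-DMa*, 3.64 for *H2-DMb1* and 3.18 for *Ciita*.

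The promoters of 3 of the genes are shown because *H2-Aa*, *H2-Eb1* and *H2-DMb1* carried the motifs through which class II genes are known to be switched on together. The stretches run from base 110 to base 21 before the RefSeq start site (GRCm38.p6), 5′ to 3′ on the strand of the gene. Capitals mark the X core (GNAACT), which lies in the X box known to bind the RFX complex, and the Y box (TGATTGG), which is known to bind NF-Y. The motifs were chosen after these sequences had been seen.
H2-Aa, chr17:34287844-34287933, minus strand: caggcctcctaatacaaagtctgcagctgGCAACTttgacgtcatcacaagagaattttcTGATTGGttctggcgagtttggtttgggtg
H2-Eb1, chr17:34305757-34305846, plus strand: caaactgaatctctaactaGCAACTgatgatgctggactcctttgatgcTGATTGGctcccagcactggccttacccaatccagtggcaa
H2-DMb1, chr17:34153081-34153170, plus strand: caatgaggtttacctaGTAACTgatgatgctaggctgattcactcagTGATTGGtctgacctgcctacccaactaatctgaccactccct

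In these 3 promoters the X core came first, and 25, 24 and 25 bases separated it from the Y box in *H2-Aa*, *H2-Eb1* and *H2-DMb1*. The Y box began 50, 61 and 63 bases before the start site. Among 32851 RefSeq promoters of 300 bases, searched on the gene strand, 42.8% held an X core and 7.82% a Y box, and 0.368% (121) held an X core followed by a Y box within 45 bases. Because the letters were chosen on these sequences, the shares do not test these 3 promoters. Among other class II genes, *H2-Eb2* held the pair, while *H2-Oa*, *H2-Ob* and *H2-DMb2* held the Y box without the X core. The 2 promoters listed for *H2-DMa* held no such pair. They lie 12800 and 10114 bases upstream of the start of its Iso-seq transcript, so they are not the sequence just before that start. *H2-Ab1*, *Cd74* and *Ciita* are named only. A match describes the letters in this window and says nothing of binding in these tissues.

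Iso-seq gave full-length models for 6 of the genes, and a model of only a terminal stretch for *Ciita*. On chromosome 17, within the MHC, *H2-DMa* (34135632 to 34139082) was followed by *H2-DMb1* (34153180 to 34160223), *H2-Ab1* (34263250 to 34269410), *H2-Aa* (34282750 to 34287816, minus strand) and *H2-Eb1* (34305902 to 34316199). *H2-Ab1*, *H2-Eb1*, *H2-DMa* and *H2-DMb1* had 1 model each, of 6, 6, 5 and 6 exons, and each had the introns of a GENCODE transcript. The *H2-DMa* model, with the introns of *H2-DMa-205*, began 16091 bases downstream of the GENCODE start of the gene. *H2-Aa* had a model of 5 exons (1111 bases) with the introns of *H2-Aa-201* and a shorter one of 4 exons (796 bases) that began within the gene.

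*Cd74*, on chromosome 18 (60803849 to 60812648), had 3 models. Those of 8 exons (1219 bases) and 9 exons (1411 bases) had the introns of *Cd74-201* and *Cd74-202*, the transcripts known to encode the short and the long invariant chain. The third had 7 exons and 2659 bases, of which 1148 lay outside GENCODE exons. This raises the length by which *Cd74* counts are divided, and per kilobase of the 8-exon transcript the colon mean of *Cd74* was 325 instead of 149 (alternative added after seeing the data).

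*Ciita*, on chromosome 16, was counted on a single exon of 3114 bases (10527950 to 10531063). That exon began 2711 bases past the last coding base and shared 0 coding bases and 469 other exon bases with *Ciita*, while 2645 bases lay outside its GENCODE exons. It also shared 606 bases with exons of *Dexi* on the opposite strand. Whether strand was used in counting is not given in the sources used here, so reads of both genes cannot be told apart in that stretch. In what follows, *Ciita* therefore means this terminal locus, and its counts do not measure the coding exons.

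**Figure D1:**
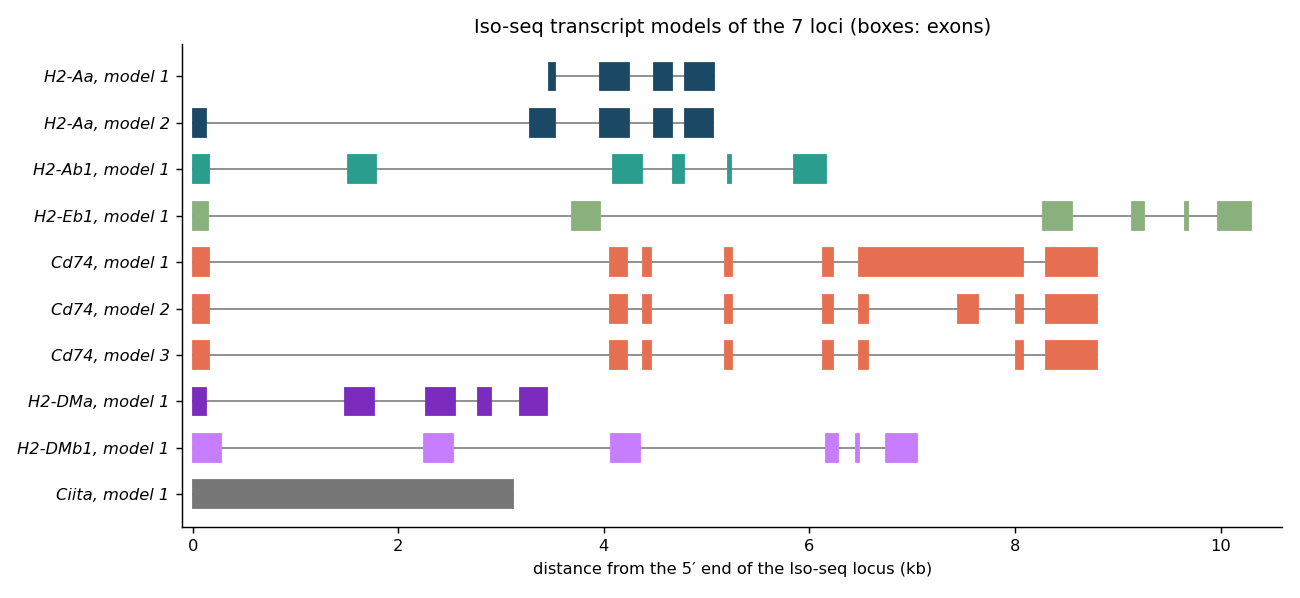
Iso-seq transcript models of the 7 genes, with distance in kilobases from the 5′ end of the locus on the x axis, 1 model per row, boxes for exons and lines for introns. *H2-Aa* has 2 models and *Cd74* has 3, and the *Ciita* model is 1 exon of 3114 bases.

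The classical chains were highest in colon and lowest in brain. *H2-Aa*, the I-A alpha chain, had a mean of 180 FPKM ± 54.6 (SD, n = 6) in colon, 93.8 ± 14.3 (n = 3) in ovary, 75.0 ± 41.8 (n = 5) in heart, 23.6 ± 12.6 (n = 3) in testis, 6.99 ± 1.10 (n = 6) in cerebellum and 5.12 ± 1.63 (n = 6) in brain. The colon mean was 35.2 times the brain mean. In colon, *H2-Aa* was the 294th gene by mean level, above 99.1% of the genes detected there, and in brain it was the 9462nd.

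Library by library, *H2-Aa* ran in colon from 114 through a median of 174 to 277 FPKM. In heart it was 52.5, 57.3 and 150 in females 1 to 3 and 61.7 and 54.2 in males 1 and 2. In ovary it was 82.5, 110 and 89.0, and in testis 18.4, 14.6 and 38.0. One library was high in heart (female 3) and 1 in testis (testis 3). In cerebellum *H2-Aa* ran from 5.69 through 6.94 to 8.38, and in brain from 3.44 through 5.04 to 7.70. The ranges of brain and cerebellum overlapped, and both lay below every library of the other tissues.

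*H2-Ab1*, the partner beta chain, had means of 104 FPKM in colon, 59.5 in ovary, 40.2 in heart, 17 in testis, 4.64 in cerebellum and 2.94 in brain. Its libraries ran from 59.7 to 167 in colon, 26.9 to 72.4 in heart, 50.5 to 70.4 in ovary and 11.7 to 23.9 in testis. *H2-Eb1*, the I-E beta chain, had means of 148, 79.1, 54.4, 18.4, 5.86 and 4.59 in the same order, with 87.8 to 247 in the colon libraries and 39.0 to 96.9 in the heart libraries. The order of the 6 tissue means was thus the same for the 3 chains. In every tissue *H2-Eb1* lay between *H2-Ab1* and *H2-Aa*.

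*H2-Aa* over *H2-Ab1* had tissue means from 1.34 (testis) to 1.82 (heart), *H2-Aa* over *H2-Eb1* from 1.12 (brain) to 1.34 (heart), and *H2-Ab1* over *H2-Eb1* from 0.644 (brain) to 0.977 (testis). Single libraries ranged more widely in cerebellum, from 0.978 to 2.45 for *H2-Aa* over *H2-Ab1*.

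*Cd74* followed the chains, with a mean of 149 FPKM ± 58.1 in colon, 92.5 ± 21.5 in ovary, 72.3 ± 34.3 in heart, 21.6 ± 11.5 in testis, 7.92 ± 1.96 in cerebellum and 6.08 ± 2.31 in brain. Its heart libraries were 44.0, 61.9 and 132 in females and 59.2 and 64.7 in males, and those of ovary were 69.9, 113 and 94.6. The colon libraries ran from 83.9 through 145 to 242, the testis libraries were 17.7, 12.6 and 34.5, and brain and cerebellum together ran from 3.56 to 10.01. Female heart 3 and testis 3 were again the high libraries of their tissues. Per library, *Cd74* over *H2-Aa* had tissue means between 0.814 (colon) and 1.20 (brain).

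**Figure D2:**
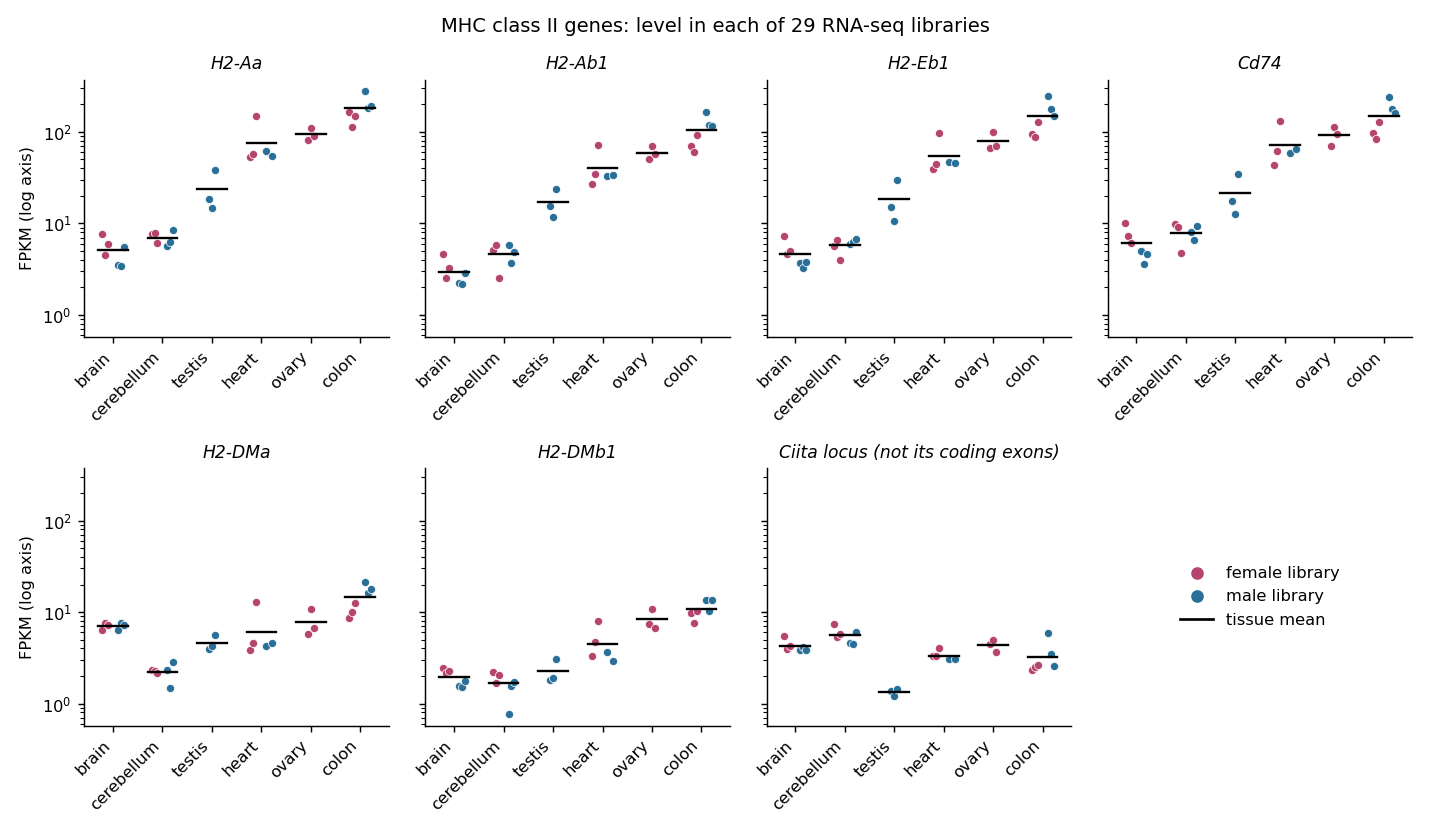
Level of each gene in the 29 RNA-seq libraries, as FPKM on a log axis by tissue, with female and male libraries as separate points and the tissue mean as a bar. The tissue means of the chains and *Cd74* lie between 2.94 and 6.08 FPKM in brain and between 104 and 180 in colon, *H2-DMa* is lower in cerebellum than in brain, and the *Ciita* locus is highest in cerebellum.

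The H2-DM genes were less uneven across tissues, and their means lay below those of the chains except for *H2-DMa* in brain. *H2-DMa* had a mean of 14.5 FPKM ± 4.95 in colon, 7.78 ± 2.69 in ovary, 7.08 ± 0.545 in brain, 6.04 ± 3.82 in heart, 4.62 ± 0.859 in testis and 2.23 ± 0.433 in cerebellum, 6.50 times between highest and lowest. Brain libraries ran from 6.37 through 7.25 to 7.62 and cerebellum libraries from 1.48 through 2.31 to 2.82, so they did not overlap. Brain was thus among the higher tissues for *H2-DMa*, whereas it was the lowest for the chains.

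Elsewhere, *H2-DMa* was 3.82, 4.59 and 12.8 in female hearts, 4.28 and 4.64 in male hearts, 5.77, 10.8 and 6.72 in ovary, and 3.98, 4.29 and 5.60 in testis. The colon libraries ran from 8.70 through 14.4 to 21.5. Female heart 3 and ovary 2 were the high libraries, and without them heart and ovary lay below every brain library except for ovary 3, at 6.72.

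*H2-DMb1* had a mean of 10.9 FPKM ± 2.34 in colon, 8.33 ± 2.18 in ovary, 4.52 ± 2.06 in heart, 2.25 ± 0.692 in testis, 1.95 ± 0.387 in brain and 1.67 ± 0.505 in cerebellum. Heart libraries were 3.29, 4.67 and 8.01 in females and 3.68 and 2.93 in males, ovary libraries were 7.40, 10.8 and 6.77, and testis libraries 1.83, 1.88 and 3.05. In cerebellum it ran from 0.773 to 2.22, and in brain from 1.52 to 2.44. Brain, cerebellum and testis overlapped. Only uniquely mapped reads were kept, and *H2-DMb1* has the neighbouring copy *H2-DMb2* (2.77 FPKM in colon, 1.44 without male colon 1, and 0.333 in brain), so reads that fit both are missing from both.

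The H2-DM chains were out of step in brain. Per library, *H2-DMa* over *H2-DMb1* was 3.77 ± 0.823 in brain (2.61 to 4.97, n = 6), 2.10 in testis, 1.504 ± 0.775 in cerebellum (0.940 to 2.999, n = 6), 1.31 in colon, 1.299 in heart and 0.925 in ovary. The brain and cerebellum ratios overlapped in 1 cerebellum library, male 1, at 2.999. The log2 ratio was 1.42 higher in brain than in cerebellum (SE 0.29, two-sided exact permutation test, p = 0.00433, adjusted p = 0.0130 over the 6 ratios compared).

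*H2-Aa* over *H2-DMa* was 0.732 in brain, 3.201 in cerebellum, 4.93 in testis and 12.6 to 12.9 in ovary, heart and colon. Brain had the only mean under 1, and its log2 ratio was 2.18 lower than that of cerebellum (difference -2.18, SE 0.23, exact permutation test, p = 0.00216, the smallest this design gives, adjusted p = 0.0130). The other 4 ratios did not pass (adjusted p from 0.182 to 0.693). These ratio tests were chosen after seeing the data.

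**Figure D3:**
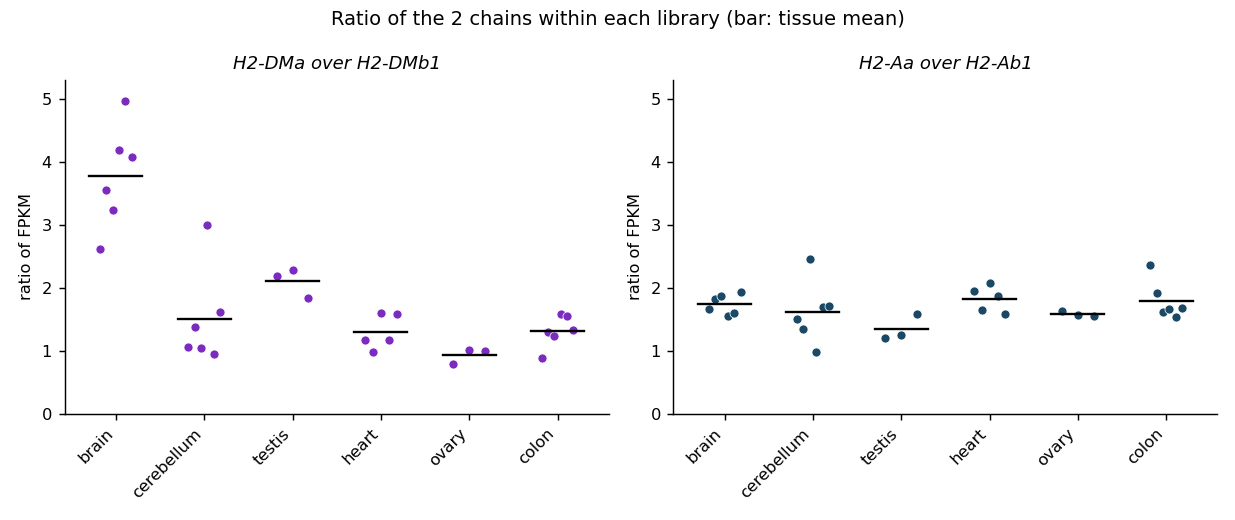
Ratio of *H2-DMa* to *H2-DMb1* (left) and of *H2-Aa* to *H2-Ab1* (right) within each library, on a linear axis by tissue, 1 point per library and a bar at the tissue mean. The brain libraries lie at 2.61 to 4.97 on the left, above all others but 1 cerebellum library, while the tissue means on the right lie between 1.34 and 1.82.

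The *Ciita* locus had an order of its own. Its mean was 5.61 FPKM ± 1.10 in cerebellum, 4.38 ± 0.652 in ovary, 4.28 ± 0.610 in brain, 3.35 ± 0.394 in heart, 3.24 ± 1.38 in colon and 1.35 ± 0.125 in testis. Libraries ran from 4.45 through 5.53 to 7.45 in cerebellum, 3.90 through 4.07 to 5.49 in brain and 2.32 through 2.63 to 5.95 in colon. They were 3.31, 3.31 and 4.01 in female hearts, 3.05 and 3.05 in male hearts, 4.45, 4.99 and 3.69 in ovary, and 1.38, 1.21 and 1.46 in testis. Testis was below every other tissue, and the other tissues overlapped in part. *Dexi*, the neighbour on the opposite strand, had means of 7.53 in cerebellum, 5.94 in brain, 5.39 in ovary, 4.10 in heart, 3.56 in colon and 1.60 in testis, so it too was highest in cerebellum and lowest in testis. The part of *Dexi* reads in the *Ciita* counts was not tested.

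Tissue specificity, as the index tau (0 for even levels, 1 for a single tissue), was 0.773, 0.761 and 0.780 for *H2-Aa*, *H2-Ab1* and *H2-Eb1*, 0.731 for *Cd74*, 0.617 for *H2-DMa*, 0.657 for *H2-DMb1* and 0.408 for *Ciita*. The median of 24678 genes at 1 FPKM or more was 0.734. The class II genes thus lay near or below the median.

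The comparison of heart with colon asked how far the levels of the peripheral somatic tissues lay apart. In the edgeR test 5 genes were lower in heart, 1 (*Ciita*) was higher and *Cd74* was not called. The log2 differences were -0.80 for *H2-Aa* (SE 0.21, adjusted p = 0.00241), -0.84 for *H2-Ab1*, -0.90 for *H2-Eb1*, -0.81 for *H2-DMa* and -0.82 for *H2-DMb1*, and -0.50 for *Cd74* (SE 0.23, adjusted p = 0.0741). *Ciita* was 0.64 higher on the TMM scale (SE 0.17, adjusted p = 0.00257). In FPKM its means were 3.35 in heart, 3.24 in colon and 3.18 in heart without female heart 3, so the difference depended on the scale. Of all genes tested 53.9% were called in either direction (7481 higher and 8650 lower in heart), so 6 of 7 stands beside a background of that size. The shares called in later comparisons also count both directions. The FPKM ranges of heart and colon overlapped for all 7 genes, a count given without the matching share over all genes. Except for *Ciita*, they overlapped through female heart 3 alone. Without that library all 7 were called, *Cd74* at -0.61 (adjusted p = 0.0328), and *Cd74* was also called without testis 3 (adjusted p = 0.0397), which shares the estimate of the spread.

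From colon to ovary, 6 genes were lower in ovary (background 48.0% called, with 6386 genes lower and 7972 higher in ovary). The log2 differences of colon minus ovary were 1.19 for *H2-Aa*, 1.03 for *H2-Ab1*, 1.12 for *H2-Eb1*, 0.89 for *Cd74*, 1.12 for *H2-DMa* and 0.66 for *H2-DMb1* (SE 0.23, adjusted p = 0.0195). *Ciita* had -0.18 (adjusted p = 0.4996), and its sign changed with DESeq2. Without ovary 1 the calls of *Cd74* (adjusted p = 0.0765) and *H2-DMb1* (0.102) were lost, and without ovary 3 that of *H2-DMb1* (0.106). The *H2-DMb1* call was also lost with the replicate number as a block (0.59, adjusted p = 0.0579) and with the library code as a block (0.45, adjusted p = 0.143).

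Heart and ovary, neighbours in the order, were not told apart by edgeR: 0 of the 7 genes were called (44.0% of all genes were), 1 had an unadjusted p under 0.05, and the adjusted p ran from 0.0747 for *Ciita* to 0.630 for *H2-DMb1*. DESeq2 called 1, *Ciita*, as did edgeR without female heart 3, ovary 2, testis 2 or male colon 1 (adjusted p = 0.0336 to 0.0494). On FPKM the ovary mean was above the heart mean for all 7, whereas on TMM-scaled totals heart was above ovary for 6 (93.8 against 70.1 for *H2-Aa*) and *H2-DMb1* was not.

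Testis lay below colon, heart and ovary. Against colon all 7 genes were lower in testis (71.9% of all genes called), from 0.88 for *Ciita* to 2.58 for *H2-Eb1* on the log2 scale. Against heart 6 were lower (67.5% called) and *H2-DMa* had 0.44 higher in heart (SE 0.25, adjusted p = 0.128). Against ovary 6 were lower (64.3% called), by 1.17 to 1.47 for the chains and *Cd74*, and *H2-DMa* had 0.13 higher in ovary (SE 0.27, adjusted p = 0.7098). The *H2-DMa* difference was thus not called between the gonads, nor between heart and testis. Between the gonads its sign changed without ovary 2 (-0.22), with DESeq2 and with the replicate number as a block. Among all genes, 8848 were called lower in testis than in colon, 7556 than in heart and 7919 than in ovary.

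Cerebellum, the next lower, had 6 genes below testis and *Ciita* above it (71.0% called, with 12059 genes below and 9181 above). *H2-Ab1* was 2.21 lower on the log2 scale (difference -2.21), *H2-Aa* -2.10, *H2-Eb1* -1.99, *Cd74* -1.78, *H2-DMa* -1.39 and *H2-DMb1* -0.79 (adjusted p = 0.00355), while *Ciita* was 1.71 higher. Without testis 3, the call of *H2-DMb1* was lost (-0.50, adjusted p = 0.0824).

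Between brain and cerebellum a single gene was called, *H2-DMa*, at 1.80 higher in brain (SE 0.20, adjusted p = 1.37e-07 by edgeR, background 26.1%). It was higher in 6 of 6 brain libraries than in any cerebellum library. *H2-DMb1* had 0.35 (adjusted p = 0.205), *H2-Aa* -0.35 (0.257), *H2-Eb1* -0.26, *Cd74* -0.32, *Ciita* -0.25 and *H2-Ab1* -0.55 (0.0629). The *H2-Ab1* difference was called with other settings, such as DESeq2 (adjusted p = 0.0293), and without female brain 1, female cerebellum 3, male cerebellum 2, testis 2 or testis 3 (0.0104 to 0.0468).

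Brain was then compared with the peripheral tissues. Against colon 6 genes were lower in brain and *Ciita* was higher by 0.58 (68.3% called), with -4.99 for *H2-Aa*, -4.96 for *H2-Ab1*, -4.83 for *H2-Eb1*, -4.46 for *Cd74*, -2.34 for *H2-DMb1* and -0.83 for *H2-DMa*. Against heart (58.8% called) and ovary (56.8% called) 5 genes were lower, and *H2-DMa* and *Ciita* were not called in either. *H2-DMa* had -0.02 against heart (SE 0.21, adjusted p = 1.00) and 0.29 against ovary (SE 0.24, adjusted p = 0.316), where it was called without ovary 2 (0.63, adjusted p = 0.0422). *Ciita* was not called against colon with DESeq2 (0.34, adjusted p = 0.0562). Against testis *H2-Aa* had -2.44, *H2-Ab1* -2.76 and *H2-Eb1* -2.25, and cerebellum minus colon had -4.64, -4.41 and -4.58 for these chains. These comparisons share the brain libraries. Among all genes, 8847 were called lower in brain than in colon, 7095 than in heart and 7659 than in ovary.

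**Figure D4:**
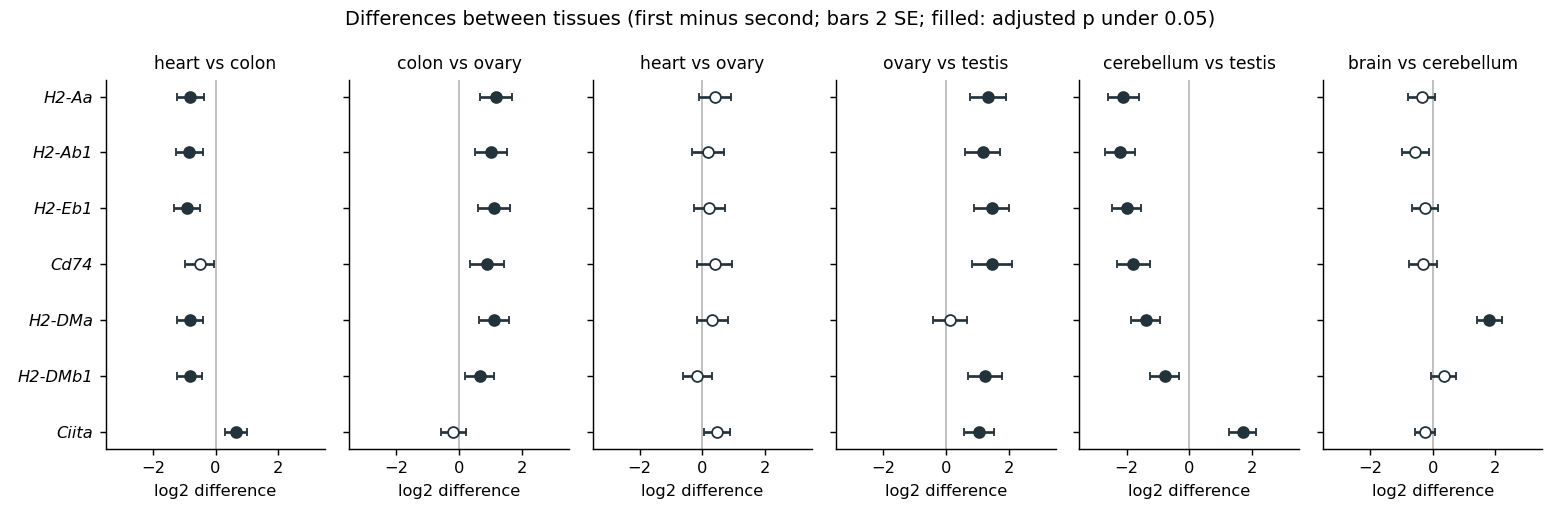
Log2 differences between 6 pairs of tissues in the edgeR fit, the first tissue minus the second, with bars of 2 standard errors and filled points for an adjusted p under 0.05. *H2-DMa* alone is filled in brain against cerebellum, at 1.80, and no point is filled in heart against ovary.

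In both colon and heart, 1 library had the highest FPKM for all 7 genes, namely female heart 3 and male colon 1. The same held for ovary 2 and testis 3. Male colon 1 was also the highest colon library for 25.7% of all genes. On TMM-scaled totals *H2-DMb1* was highest in male colon 3 (12.0 against 11.1 in male colon 1) and *Ciita* in female heart 1. Female heart 3 stood above the highest of the other heart libraries 2.42-fold for *H2-Aa*, 2.09-fold for *H2-Ab1* and *H2-Eb1*, 2.04-fold for *Cd74*, 2.77-fold for *H2-DMa*, 1.71-fold for *H2-DMb1* and 1.21-fold for *Ciita*. On TMM-scaled totals the same ratios were smaller, 1.52 for *H2-Aa* and 1.09 for *H2-DMb1*, and *Ciita* fell to 0.655. On FPKM, 24.9% of the genes tested stood as far above the other hearts as *H2-DMb1* did, or farther.

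The median coefficient of variation of the 7 genes was 45.6% in heart against 49.6% for all genes tested, and 37.2% in colon against 33.8%. Without female heart 3 the heart value was 8.69% (all genes 27.9%). The highest library was 2.73 times the lowest in heart (median of the 7, all genes 2.35), 1.21 times without female heart 3 (all genes 1.61), and 2.56 times in colon (all genes 2.06). As the SD of log2 CPM about the mean of tissue and sex, the 7 genes had a median of 0.250 in heart (all genes 0.426) and 0.275 in colon (all genes 0.379). This order against all genes depended on the setting. With total counts in place of TMM scaling the heart value was 0.606 (all genes 0.546), and about the mean of both sexes the colon value was 0.432 (all genes 0.393). Without female heart 3 the heart value was 0.0940 (all genes 0.266). In testis it was 0.525 against 0.207.

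Marker genes of immune cells and of fat moved with female heart 3. There, 53.5% of all genes tested were above every other heart library. Of the B cell markers 8 of 8 were, and their summed level was 48.6 FPKM against 2.18 to 4.31. The same held for 7 of 7 T cell markers (16.1 against 0.923 to 4.63), 9 of 9 dendritic cell markers (10.005 against 3.32 to 4.81), 9 of 10 macrophage markers (949 against 332 to 456) and 4 of 5 plasma cell markers (50.2 against 2.59 to 4.28). The adipocyte markers, 4 of 4, summed to 1052 against 0.112 to 3.13, and *Lep* had no count in the other 4 hearts. The class I genes were higher too, 13 of 14, with a sum of 1817 against 548 to 681. Genes of heart muscle were lower, with *Myh6* at 1789 FPKM against 3441 to 4951 and *Tnnt2* at 2215 against 3550 to 5303, as were 4 of 4 red cell markers (6666 against 8517 to 23132). The leukocyte gene *Ptprc* was higher, at 22.6 FPKM against 3.03 to 4.59. Of 3 lymphoid stroma markers 2 were above the others (sums of 78.6 against 0.314 to 0.699), and *Madcam1* had no count in any heart library. *Derl3* had none in male heart 1. Their part in the class II levels of that library was not tested.

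In testis 3, where 33.9% of all genes were above the other testis libraries, the class II genes were 1.31 to 2.06 times the highest of the other testis libraries, *Ciita* 1.06 times. Here 9 of 10 macrophage markers were the highest of the tissue (269 against 162 to 228), while only 4 of 8 B cell markers were (2.62 against 2.39 to 2.61) and the leukocyte gene *Ptprc* was not (2.04 against 1.38 and 2.16). The 4 adipocyte markers were also highest there (65.6 against 51.8 to 53.5). In ovary 2 (28.2% of all genes highest), 7 of 7 T cell markers (7.45 against 4.02 to 4.73), 4 of 4 adipocyte markers (118 against 12.2 to 82.3), 7 of 10 macrophage markers and 2 of 8 B cell markers were highest. Their part in the result was not tested.

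**Figure D5:**
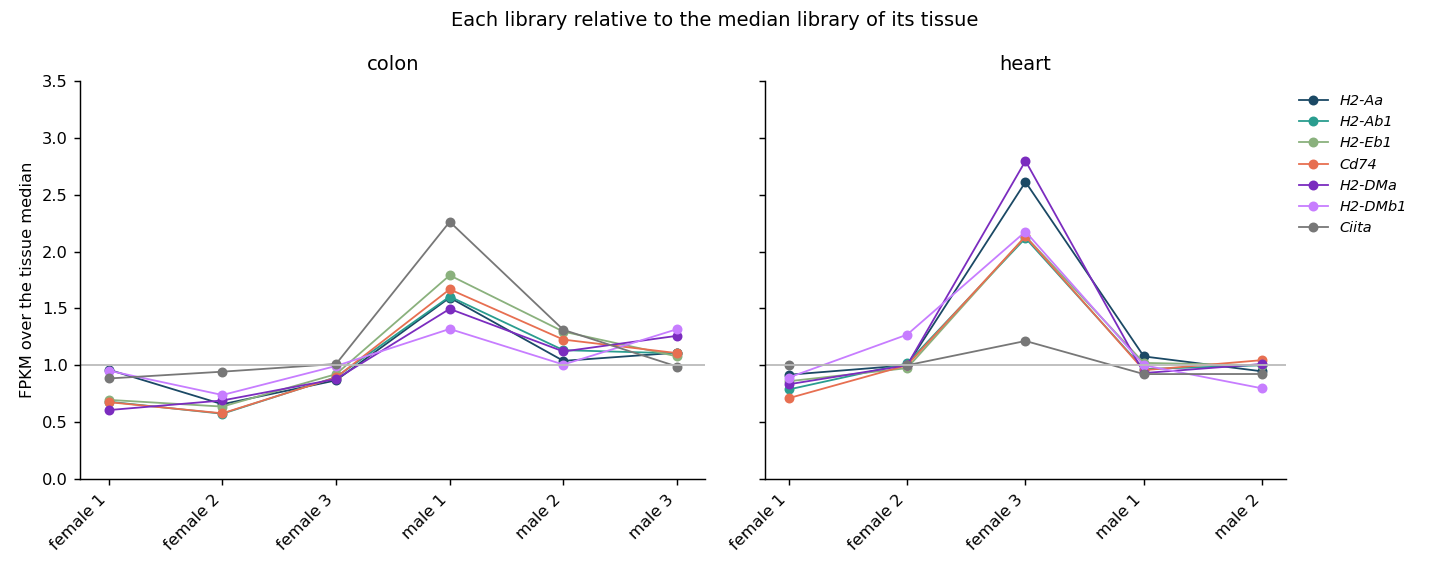
FPKM of each gene in the colon libraries (left) and heart libraries (right) divided by the median library of the tissue, on a linear axis, 1 line per gene joining its libraries. Female heart 3 and male colon 1 are the highest library for all 7 genes, male colon 1 by a narrow margin for *H2-DMb1*.

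Between the sexes, no class II gene of colon passed the correction. On mean FPKM alone, males lay above females for each of the genes followed. *H2-Aa* was 167, 114 and 151 FPKM in females 1 to 3 and 277, 180 and 193 in males. *Cd74* was 98.1, 83.9 and 130 against 242, 178 and 161, and *H2-DMa* 8.70, 9.92 and 12.6 against 21.5, 16.1 and 18.1. On FPKM the sexes did not overlap for these genes, nor for *H2-Ab1*, *H2-Eb1* and *H2-DMb1*, and they overlapped for *Ciita* (2.32, 2.48 and 2.66 against 5.95, 3.45 and 2.60). On TMM-scaled totals they overlapped for *H2-DMb1* too. Of all genes tested, 13.4% did not overlap between the sexes in colon, 10.8% with males higher. Male means were 1.36 times (*H2-DMb1*) to 1.86 times (*Cd74*) the female means. These ratios depended on the scale, as TMM factors were 1.109 to 1.223 in male and 0.991 to 1.097 in female colon. In the edgeR fit the same folds were 1.22 and 1.67.

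In the edgeR test the log2 differences of male minus female colon were 0.72 for *H2-Eb1*, 0.74 for *Cd74*, 0.68 for *H2-Ab1*, 0.67 for *H2-DMa*, 0.52 for *Ciita*, 0.44 for *H2-Aa* and 0.29 for *H2-DMb1*, with an adjusted p of 0.386 to 0.813. Of the 7, 5 had an unadjusted p under 0.05, as did 8.85% of all genes tested, and 0.324% of all genes were called. DESeq2 also called none of the 7. With the library code as a block, the *H2-DMb1* difference changed sign. Without male colon 1 the differences were 0.60 for *Cd74* and *H2-DMa*, 0.55 for *H2-Eb1*, 0.53 for *H2-Ab1*, 0.27 for *H2-Aa* and *H2-DMb1* and 0.17 for *Ciita*.

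Some marker genes also lay apart between the sexes in colon, where 10.8% of all genes had males above females. Of 10 macrophage markers 8 were higher in every male than in every female colon (sums of 502 to 1023 against 322 to 401), as were 4 of 8 B cell markers (4.13 to 83.0 against 2.75 to 4.25), 3 of 9 dendritic cell markers (9.29 to 17.4 against 5.85 to 7.60), 3 of 5 plasma cell markers (148 to 202 against 98.0 to 139), 2 of 3 lymphoid stroma markers (4.18 to 21.4 against 0.840 to 2.49), 3 of 7 microglia markers (47.5 to 58.7 against 37.7 to 45.9) and 2 of 7 T cell markers (8.70 to 21.4 against 6.73 to 8.86). Male colon 1, the highest class II library, had 83.0 FPKM of B cell markers, and the other colons had 2.75 to 7.47. Its *Ptprc* level was 36.9 against 8.81 to 14.8, its lymphoid stroma markers summed to 21.4 against 0.840 to 4.53, and its intestinal epithelial markers to 3319 against 5112 to 5714, with 6 of 7 lower than in any other colon. *Pax5* had no count in female colon 3. Their part in the sex difference was not tested. The summed class I level ran the other way, 1610 to 2054 in males against 2517 to 2976 in females, as did that of the interferon-gamma response genes, 380 to 450 against 470 to 662. Adipocyte markers were lower in males on average (0.515 times the female mean), with sums of 24.3 to 102 against 92.9 to 144 that overlapped.

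In brain, cerebellum and heart no class II gene was called between the sexes either (0.0368%, 0.0301% and 0.0635% of all genes were), with 1, 0 and 0 at an unadjusted p under 0.05 (4.83%, 3.06% and 9.65% of all genes). In brain the males lay below the females without overlap for *H2-Eb1* (0.634 times the female mean), *Cd74* (0.563 times) and *H2-DMb1* (0.708 times), the opposite direction to colon, as did 8.59% of all genes. Endothelial markers in brain had 4 of 5 below in males (sums of 6.77 to 9.59 against 11.8 to 17.3), B cell markers 1 of 8 (0.925 to 1.88 against 2.25 to 2.79), macrophage markers 3 of 10 (157 to 190.3 against 184 to 197) and class I genes 4 of 14 (383 to 425 against 441 to 452). Lymphoid stroma markers summed to 0.288 to 0.382 against 0.447 to 0.634. Other sums overlapped between the sexes in brain. Microglia markers had 136 to 158 in males against 117 to 167 in females, T cell markers 3.47 to 4.35 against 2.51 to 4.85. Dendritic cell markers had 7.80 to 8.53 against 7.94 to 8.46. Their part in the brain difference was not tested. In heart the males lay below the females for *Ciita* (9.11% of all genes), and in cerebellum for no gene of the 7. *Cd74* in brain had -0.76 (male minus female, SE 0.32, adjusted p = 0.995). The sex difference of colon minus that of heart was not called for any of the 7 (0.0201% of all genes), and *H2-DMa* had the largest, 1.00 (SE 0.41, unadjusted p = 0.0232, adjusted p = 0.483 by edgeR).

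Other genes of the class II pathway were split. Of 21 tested, heart minus colon gave 3 higher and 11 lower in heart (median -0.33, all genes -0.09), brain minus colon 4 and 12, brain minus heart 6 and 9, and ovary minus testis 11 and 2. Of all genes tested 53.9%, 68.3%, 58.8% and 64.3% were called in these comparisons, in either direction. By number, the list's calls (14, 16, 15 and 13 of 21) stand near these shares. By direction, all genes gave 7481 higher and 8650 lower in heart minus colon, and 11581 and 8847 in brain minus colon. They gave 10488 and 7095 in brain minus heart, and 7919 and 11313 in ovary minus testis. In all but heart minus colon, the list leaned the opposite way. The 6 with the highest mean FPKM follow. *Ctss*, cathepsin S, which trims the invariant chain, had 267 FPKM in colon and 29.7 in heart (log2 difference -2.78). *Sppl2a*, which cleaves the last invariant chain remnant in the membrane, had 144 in colon and 6.15 in heart (-4.05). Without female heart 3 the heart means of *Ctss* and *Sppl2a* were 21.4 and 5.17. *Ifi30*, the lysosomal thiol reductase, had 42.6 and 11.2 (-1.67), and 6.41 in heart without female heart 3, where it was 30.6. *Ctsl* had 149 and 127 FPKM but was called higher in heart on the TMM scale (0.34, adjusted p = 0.0153), as was *Nfyc*, a subunit of NF-Y (15.3 and 19.9, log2 difference 0.98). *Lgmn* had 31.9 and 23.2 and was not called (0.13, adjusted p = 0.428).

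Class I presentation genes, which load peptides for CD8+ T cells, gave 2 higher and 11 lower of 14 in heart minus colon, 2 and 12 in brain minus colon, 0 and 12 in brain minus heart and 10 and 1 in ovary minus testis. Their medians were -0.71, -2.91, -1.82 and 0.97, and those of the 7 class II genes were -0.81, -4.46, -3.93 and 1.25. Interferon-gamma response genes (15 tested of 16, *Ifng* was not) gave 3 and 7, 1 and 14, 0 and 12, and 11 and 0. The same shares and directions of all genes are the background of these counts. Microglia markers ran the other way in brain, with 7 of 7 higher than in colon, while B cell markers had 6 of 8 lower. These lists are described by counts and medians alone.

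Over the 29 libraries, the log2 CPM of each gene followed the mean of the other 6 with Pearson's r of 0.990 for *H2-Aa*, 0.981 for *H2-Ab1*, 0.993 for *H2-Eb1*, 0.988 for *Cd74*, 0.949 for *H2-DMb1*, 0.660 for *H2-DMa* and -0.34 for *Ciita*. As deviations from the means of tissue and sex these were 0.873, 0.823, 0.916, 0.895, 0.519, 0.612 and 0.389. The libraries share depth and tissue makeup, so r is a description. The protein-coding genes most like the mean of the 7 were *Smtn* (0.977), *Stat6*, *Tgfbr2*, *Syk*, *Ctsc*, *Fbn1*, *B4galt1*, *Txnip*, *Psmb8* and *Lsp1* (0.966) over the libraries. By deviations they were *Slc11a1* (0.884), *Tmem176b* (0.845), *Bin1*, *Capn2*, *Sall2*, *Vsir*, *Tgm2*, *Grk6*, *Cnpy3* and *Fam20c* (0.795). Without *Ciita* in the mean, 7 and 8 of these 10 were the same.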

How the data were processed

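The authors deposited whole-number counts of uniquely mapped reads per gene for 29 libraries, on Iso-seq transcript models (GRCm38.p6) combined with ENSEMBL genes. The submitters' processing notes name HISAT2 2.0.5 and featureCounts 1.6.3, with no role or order. Strand setting is not given in the sources used here, and 0 other per-sample columns were present. Here, FPKM and tissue means were computed from these counts. Groups were tested with edgeR 4.0.16 (quasi-likelihood, TMM, filterByExpr) in R 4.3.3, 1 fit with 10 group means and no block, a tissue being the mean of its sexes, and Benjamini-Hochberg adjustment over 29911 genes with calls at 0.05. Alternatives included DESeq2 1.42.0. Log2 CPM used a prior count of 2. The fit was also run on counts simulated from its own means and spread, with no outcome given here. Such counts cannot test the effect of single outlying libraries or of shared animals. Named genes were the 7 members, up to 6 other class II genes by mean FPKM, up to 4 of each other list and 10 genes by each correlation. The genes at 0 and *H2-DMb2*, *H2-Eb2*, *H2-Oa*, *H2-Ob*, *Dexi*, *Ptprc*, *Myh6*, *Tnnt2* and *H2-Ea-ps* were named outside that rule, after their values were seen. Members, lists and tests were chosen with earlier results of these data known. The 28 replicate pairs within groups had 0 identical libraries. Names, positions and overlaps come from GENCODE M21 and RefSeq promoters, same build.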

Additional observations from a re-analysis of the deposited data

Results flagged for a closer look

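The highest or lowest library stood apart from the others of its tissue, both sexes together, in 8 of 28 groups of 5 or 6 libraries by Dixon's criterion, which flags about 1 in 20 groups by chance. Female heart 3 accounted for 6, and the 7 genes of one library are not independent of each other. There, *H2-Aa* was 150 FPKM against 52.5 to 61.7 in the other heart libraries, *H2-Ab1* 72.4 against 26.9 to 34.7, *H2-Eb1* 96.9 against 39.0 to 46.3, *Cd74* 132 against 44.0 to 64.7, *H2-DMa* 12.8 against 3.82 to 4.64, and *Ciita* 4.01 against 3.05 to 3.31. The *Ciita* locus was also high in female brain 1, at 5.49 FPKM against 3.90 to 4.26, and in male colon 1, at 5.95 against 2.32 to 3.45.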

How the results depend on the processing

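Of 84 log2 differences of single genes, 78 kept their direction and call with DESeq2 and with RLE size factors, 80 with only the compared tissues, 81 with a block by library code (ranges of the code numbers in the labels), and 82 with no filter on low counts and with a replicate block. The number of the 7 genes called in brain minus cerebellum was 1 and became 2 with DESeq2, RLE size factors, no filter on low counts or the library code block, and 3 with only the compared tissues in the fit. In heart minus ovary it was 0 and became 1 with DESeq2 and RLE size factors. *Ciita* in colon minus ovary turned to 0.014 and 0.012, and *H2-DMa* in ovary minus testis to -0.052 and -0.053, and to -0.072 with a replicate block. *H2-DMb1* in male minus female colon was -0.011 with the library code block, which also ended its call in colon minus ovary (0.45, adjusted p = 0.143). Genes called by sex were 11 in brain (35 with DESeq2, 6 with the code block), 9 in cerebellum (21 with DESeq2), 19 in heart (255 with DESeq2, 30 with no filter, 8 with either block, 5 with only the compared tissue) and 97 in colon (339, 40 with the code block, 35 with the replicate block, 38 with only the compared tissue). For the sex difference of colon minus heart they were 6, and 138, 16, 3 and 0 with DESeq2, no filter, the code block and only the compared tissues. The median SD was 0.432 in colon about the mean of both sexes (all genes 0.393) and 0.606 in heart with total counts (all genes 0.546), above that of all genes, while it was below it in the fit reported.

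Leaving out 1 library at a time gave 1 to 2 genes of the 7 called in brain minus cerebellum, 0 to 1 in heart minus ovary, 7 to 285 genes called by sex in heart (highest without female heart 1 or 2, lowest without male heart 1 or 2), 43 to 157 in colon (lowest without male colon 1, highest without female heart 3) and 0 to 17 for the sex difference, and a heart SD of 0.0940 to 0.305. Values that changed sign, none of them called, ran from -0.24 to 0.15 (*H2-DMa*) and from -0.28 to 0.011 (*Ciita*) in brain minus heart, from -0.29 to 0.10 (*H2-DMb1*, heart minus ovary), from -0.22 to 0.34 (*H2-DMa*, ovary minus testis) and from -0.032 to 0.17 (log2 ratio of *Cd74* to *H2-Aa*). A replicate block, which the correlation of same-numbered libraries did not bear out (median -0.02 in females and 0.01 in males), ended the call of *H2-DMb1* in colon minus ovary (0.59, adjusted p = 0.0579) and no other. The causes were not tested. Counts of *H2-DMa* and *H2-DMb1* were low in cerebellum, at 38 to 75 and 19 to 72.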
